A study of Mus musculus with 6 samples.

Results

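The genes described are 53 metalloproteases and their relatives and inhibitors, namely 17 matrix metalloproteases (MMPs), 19 ADAMTS proteases, 5 ADAMTS-like genes, 7 ADAM proteases, the 4 tissue inhibitors of metalloproteases (TIMPs) and Reck. They were taken by name, as members of these families, out of 49671 genes in the deposited tables, with earlier results of these data known. Further relatives, such as Mmp7 and Thsd4, were kept in a separate list given below. RNA was sequenced from C57BL/6J hosts carrying Rosa-mTmG, a reporter that changes a cell from red Tomato to green GFP once Cre has acted, and Fabp4-Cre, in which the Fabp4 promoter drives Cre. Murine FC1199 pancreatic cancer cells had been put into the pancreas when the hosts were 8 weeks old, and the orthotopic tumours were taken 4 weeks later, at 12 weeks of age. Cells positive for Podoplanin were sorted by colour into 3 GFP libraries, which the labels call stellate cell-derived cancer-associated fibroblasts (CAFs), and 3 Tomato libraries, called CAFs not derived from stellate cells. Every library of both fractions comes from the same host genotype and tumour line, so no untreated or tumour-free group enters the comparison. The Fabp4 promoter is also known to be active in fat cells, in some endothelial cells and in macrophages, and colour follows Cre in all of these. Nothing in the labels says whether replicates are separate animals or how many tumours were pooled, so the spread behind each p-value may be technical.

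MMPs, ADAMs and ADAMTS proteases are zinc enzymes made as inactive proforms. MMPs cut collagens, gelatin, elastin and other matrix proteins, ADAMs release the outer parts of membrane proteins such as growth factors and receptors, and ADAMTS enzymes are secreted and process procollagens, hyalectan proteoglycans and proteins of microfibrils. ADAMTS-like proteins share the non-catalytic domains and have no protease domain. TIMPs bind the active site, and Reck is a membrane-anchored inhibitor of several MMPs. In pancreatic tumours fibroblasts are a main source of both the fibrillar matrix and the enzymes that remodel it.

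Total counts ran from 33378377 to 42154933 per library, and the 53 genes took 1.07% to 1.28% of them. Fibroblast markers were abundant in both fractions. Their summed level over 8 genes was 31307 to 35224 CPM (counts scaled to the library total, with TMM factors) in GFP and 19046 to 26793 CPM in Tomato. Col1a2 was the largest part of that sum, at 22250, 19194 and 20155 CPM in GFP and 12978, 10322 and 8768 CPM in Tomato. In all, 4 of the 8 were higher in GFP, namely Col1a2, Pdgfra, Pdgfrb and Thy1. Lum and Fap did not pass, nor did Dcn and Pdpn, both at a log2 fold change (GFP over Tomato) of -0.10. Markers of other cells also moved between the fractions. All 10 macrophage markers were lower in GFP (sums 148 to 234 against 1051 to 2644 CPM), as were 8 of 8 mesothelial markers (47.7 to 104 against 1217 to 1605 CPM), the 7 of 9 neutrophil markers tested (2.27 to 5.21 against 24.4 to 37.3 CPM) and 4 of 8 epithelial and cancer cell markers (92.1 to 114 against 356 to 429 CPM). Of these 4, Krt8 (mean 14.5 CPM in GFP against 171 in Tomato) and Krt18 (16.4 against 133 CPM) had the widest gaps. Cldn4, Cldn7, Muc1 and Sox9 did not pass. The defining neutrophil gene Ly6g was at 0 reads in every library but Tomato replicate 3, which had 5, and was not tested. Of 6 lymphatic endothelial markers the 5 tested were higher in GFP (309 to 493 against 22.2 to 77.6 CPM), with Ccl21a at 0 reads throughout, and 6 of 8 endothelial markers were higher (119 to 174 against 58.5 to 78.2 CPM). Of 7 pericyte and smooth muscle markers 2 were higher and 1 lower (sums 120 to 181 against 136 to 223 CPM), and T and NK cell markers summed to at most 3.15 CPM in any library. In such bulk samples fewer cells of a type and less RNA per cell cannot be told apart.

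The comparison asked how the equipment for matrix and surface proteolysis differed between the GFP and the Tomato fraction. Of the 17 ADAMTS genes tested, 11 were higher in GFP, the 3 procollagen N-propeptidases among them, and so were the gelatinase gene Mmp2, its activator Mmp14 and the ADAM genes Adam12, Adam19 and Adam33. The metalloelastase gene Mmp12 and Adam8 were lower by the widest margins, and no TIMP passed the test. By edgeR, 21 of the 53 genes were higher in GFP and 4 lower at an adjusted p below 0.05, 25 were tested and did not pass, and 3 had too few reads to be tested. Over all 15608 genes tested, 13.1% were called higher and 15.7% lower (2049 and 2456 genes, but 1128 and 3851 when scaled by library size alone and 2784 and 1584 once offsets for length and GC of the transcripts were fitted, called the length and GC offsets hereafter). GFP and Tomato values were separate, with no overlap of libraries, in 30 of the 50 listed genes that were tested and in 48.6% of the 15608. The median log2 fold change (GFP over Tomato) was 0.46 over those 50 and 0.00 over the 15608. Of the 25 calls, 14 held when any single library was left out, and 11 were lost without at least 1.

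Levels spanned several orders of magnitude. Per kilobase of exon (RPKM, here TMM-scaled CPM over the exon length), Timp1 was the highest of the 53 at 1023 ± 229 (SD, n = 3) in GFP and 1167 ± 282 in Tomato. Mmp2 followed in GFP at 637 ± 36.0 RPKM against 336 ± 85.4 in Tomato. Next in GFP came Mmp3 at 498 ± 112 RPKM and Timp2 at 401 ± 36.8 RPKM, the latter within 1 SD of the former. Mmp14 (194 ± 2.89 RPKM), Adamts1 (180 ± 42.8 RPKM) and Timp3 (164 ± 35.4 RPKM) did not separate from one another either. The lowest genes were hardly read. Adamts13 had 2 reads and Adamts18 had 5 reads in the 6 libraries together, and Timp4 had 2 to 10 reads per library.

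**Figure D1:**
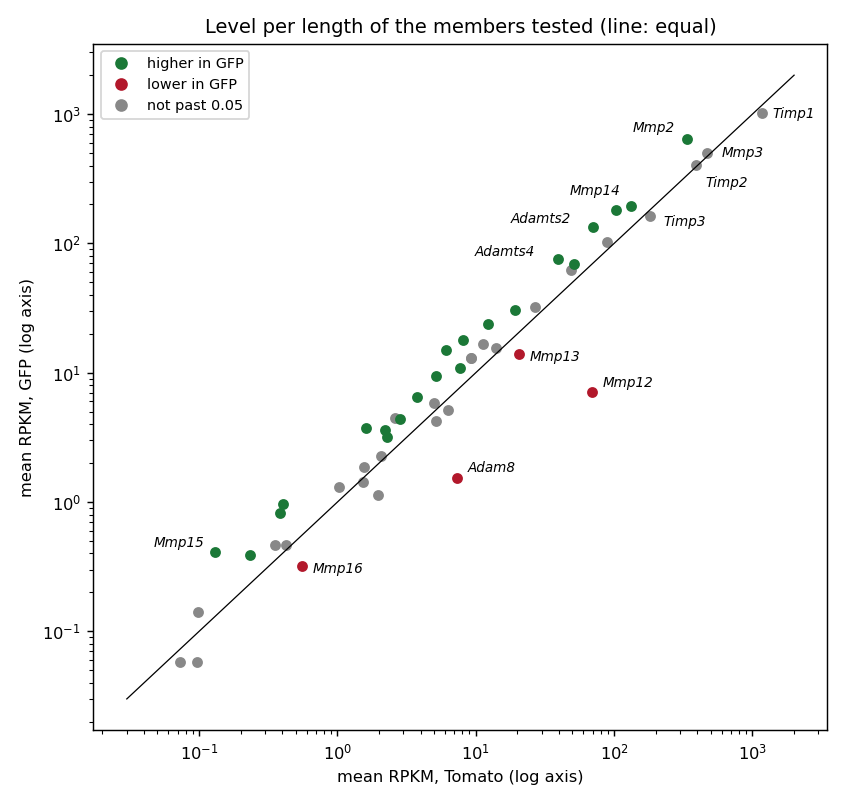
Mean RPKM of the 50 genes tested in Tomato (x) and GFP (y), both on log axes, with a line where they are equal and points coloured by the call at an adjusted p of 0.05. Timp1 lies at the top near the line, Mmp2 and Mmp14 above it, and Mmp12 and Adam8 far below it.

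**Figure D2:**
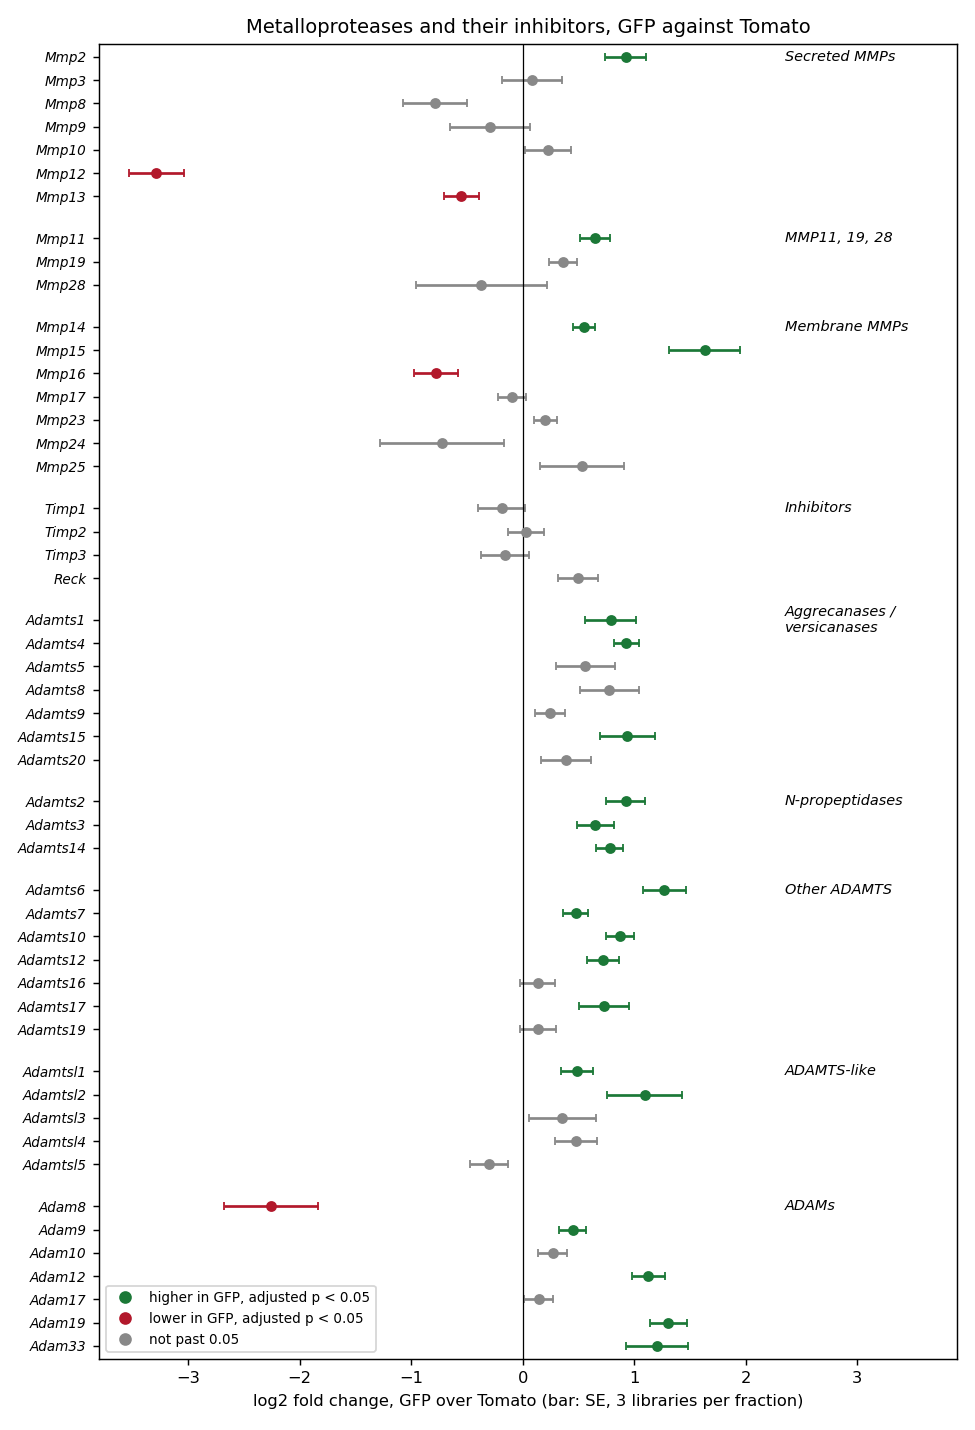
Log2 fold change of GFP over Tomato (x) with its standard error for each of the 50 genes tested, grouped by subfamily, green where higher and red where lower at an adjusted p of 0.05. The N-propeptidases all lie to the right of 0, and Mmp12 (-3.29) and Adam8 (-2.26) lie farthest to the left.

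Among the gelatinases, collagenases, stromelysins and the metalloelastase, 1 of 7 genes was higher and 2 were lower. Mmp2 (ENSMUSG00000031740, GRCm38 chromosome 8, 92827291 to 92853420), which encodes gelatinase A, had 2287, 2079 and 2074 CPM in GFP libraries 1 to 3 and 1385, 1191 and 819 CPM in the Tomato libraries. All 3 GFP libraries lay above all 3 Tomato libraries, a log2 fold change of 0.92 ± 0.19 (SE; adjusted p = 0.00876). Mmp9, the other gelatinase and a product of neutrophils and macrophages as well, had 11.4, 12.8 and 30.3 CPM in GFP and 20.9, 20.9 and 25.0 CPM in Tomato. GFP replicate 3 lay above the Tomato ones and the other two below them, and the difference did not pass (-0.29 ± 0.36, adjusted p = 0.559). Without GFP replicate 3 it passed as lower, at -0.88 (adjusted p = 0.00731).

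Mmp12 (ENSMUSG00000049723, chromosome 9, 7344381 to 7369499), the elastase of macrophages, had 47.4, 55.5 and 51.1 CPM in GFP and 353, 457 and 695 CPM in Tomato. It showed the largest difference of the 53 genes, a log2 fold change of -3.29 ± 0.25 (adjusted p = 0.00019), and the call held without each library in turn. Mmp13, an interstitial collagenase gene, had 39.1, 31.7 and 41.7 CPM in GFP and 64.9, 55.7 and 44.0 CPM in Tomato (-0.55 ± 0.16, adjusted p = 0.0324). The highest GFP and the lowest Tomato library nearly met, and leaving out any of the libraries but Tomato replicate 3 ended the call (adjusted p = 0.0505 to 0.103). So did the length and GC offsets together with the replicate number as a blocking term, or block for short (-0.31, adjusted p = 0.159). Mmp8, the neutrophil collagenase gene, had 2.26, 2.87 and 3.10 CPM in GFP and 3.24, 4.14 and 6.84 CPM in Tomato. It did not overlap between the fractions and did not pass (-0.79 ± 0.28, adjusted p = 0.0676), but passed as lower with the block alone (-0.74, adjusted p = 0.0128) and without Tomato replicate 1 (-1.01, adjusted p = 0.0155).

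The stromelysins did not follow Mmp12. Mmp3, or stromelysin 1, which cleaves many matrix proteins and activates other MMPs, was abundant at 713, 1111 and 866 CPM in GFP and 980, 1030 and 530 CPM in Tomato. The libraries overlapped, with the lowest value in Tomato and the highest in GFP (0.08 ± 0.27, adjusted p = 0.836). Mmp10, or stromelysin 2, was between 7.24 and 11.4 CPM in all 6 libraries (0.22, adjusted p = 0.429). With the length and GC offsets and the block its value was 0.57 and passed (adjusted p = 0.0217).

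Mmp13, Mmp12, Mmp3, Mmp10 and Mmp8 lie side by side on chromosome 9, together with Mmp1b, Mmp1a, Mmp27, Mmp20 and Mmp7. Several MMP genes of this cluster are classical targets of AP-1, the Fos and Jun dimer, which binds TGANTCA. Promoters that hold that motif are shown for the genes of the cluster among the 53. Those of Mmp1b, Mmp1a, Mmp27, Mmp20 and Mmp7 were not looked up. RefSeq sequences (GRCm38.p6) were at hand for 35 of the 53 genes, with 39 starts in all. In the 250 bases before the start, read on both strands with C or G in the middle position, the motif stood before 5 of these 39 starts (12.8%) and before 4.46% of all 32851 starts in the table. Of the 5, 4 belong to the cluster. Mmp8, also of the cluster, had no such motif in the 250 bases before its start. In the lines that follow, capitals mark TGANTCA and, where present nearer the start, the TATA box letters TATAAA, each sequence being the 250 bases before a start on the plus strand. They are Mmp13 (chr9:7272264-7272513), Mmp12 at the second of its 2 listed starts (chr9:7347124-7347373), Mmp3 (chr9:7445572-7445821) and Mmp10 (chr9:7502092-7502341).
Mmp13: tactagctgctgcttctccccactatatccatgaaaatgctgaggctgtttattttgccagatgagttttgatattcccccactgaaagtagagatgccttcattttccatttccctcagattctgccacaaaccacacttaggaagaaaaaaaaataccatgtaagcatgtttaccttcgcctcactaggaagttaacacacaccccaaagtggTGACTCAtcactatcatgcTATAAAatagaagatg
Mmp12: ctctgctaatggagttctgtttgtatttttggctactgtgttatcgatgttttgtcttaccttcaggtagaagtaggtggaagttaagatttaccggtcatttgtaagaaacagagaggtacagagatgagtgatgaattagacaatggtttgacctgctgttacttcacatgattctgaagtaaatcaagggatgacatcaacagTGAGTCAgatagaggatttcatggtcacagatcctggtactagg
Mmp3: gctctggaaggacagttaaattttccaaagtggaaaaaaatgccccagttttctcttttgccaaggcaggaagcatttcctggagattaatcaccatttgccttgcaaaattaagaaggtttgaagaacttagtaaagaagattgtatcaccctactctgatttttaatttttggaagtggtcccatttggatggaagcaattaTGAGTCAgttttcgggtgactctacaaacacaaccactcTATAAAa
Mmp10: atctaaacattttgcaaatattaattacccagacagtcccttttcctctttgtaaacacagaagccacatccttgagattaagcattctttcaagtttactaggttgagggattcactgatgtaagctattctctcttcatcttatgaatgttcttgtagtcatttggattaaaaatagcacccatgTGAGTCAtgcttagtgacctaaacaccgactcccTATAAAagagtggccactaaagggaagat

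The motif begins 35 bases before the start of Mmp13, 44 before that of Mmp12, 46 before that of Mmp3 and 63 before that of Mmp10. The second start of Mmp12 lies inside the gene's GENCODE span, and the first has neither motif in its window. The log2 fold changes were -3.29 for Mmp12, -0.55 for Mmp13, 0.08 for Mmp3 and 0.22 for Mmp10. The match describes letters only, and a part of AP-1 in these values was not tested. The AP-1 genes themselves were abundant in both fractions. Of Fos, Fosb, Fosl1, Fosl2, Jun, Junb and Jund, only Fosl2 (0.44, adjusted p = 0.0346) and Jund (0.38, adjusted p = 0.0384) passed, both as higher in GFP. For Jund the strand columns held 4.15 times the reads of the column for both strands, which leaves out reads over exons of genes on both strands.

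**Figure D3:**
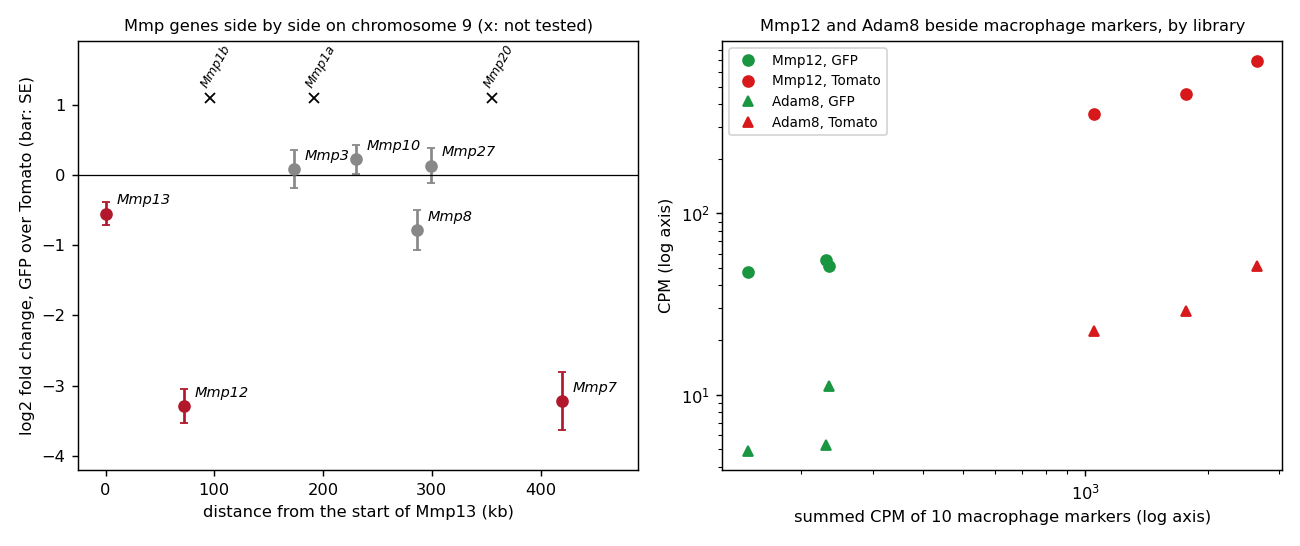
Left, log2 fold change of GFP over Tomato with its standard error for the Mmp genes of the chromosome 9 cluster, by distance from the start of Mmp13 in kb, with crosses for genes that were not tested. Right, CPM of Mmp12 (circles) and Adam8 (triangles) in each library against the summed CPM of 10 macrophage markers, on log axes. Mmp12 runs from 47.4 CPM up to 695 CPM.

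Both Mmp12 and the macrophage markers were lower in GFP. The marker sum was 148, 231 and 234 CPM in GFP libraries 1 to 3, where Mmp12 had 47.4, 55.5 and 51.1 CPM. In Tomato the sum was 1051, 1766 and 2644 CPM, and Mmp12 had 353, 457 and 695 CPM. Divided by the marker sum, a ratio chosen after the values were seen, Mmp12 was at 0.321, 0.240 and 0.219 in GFP. In Tomato it was at 0.336, 0.259 and 0.263, so that the fractions overlapped. Macrophage markers were lower for 10 of 10 genes and none was at 0 in either fraction. Their part in the difference was not tested.

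Of Mmp11, Mmp19 and Mmp28, secreted MMPs outside that cluster, 1 was higher. Mmp11, or stromelysin 3, which is activated inside the cell by furin and is known from the stroma of many carcinomas, had 79.5, 87.5 and 86.2 CPM in GFP and 57.6, 60.9 and 42.6 CPM in Tomato. The fractions were separate (0.65 ± 0.13, adjusted p = 0.00946). Mmp19 had 234, 228 and 198 CPM in GFP and 192, 179 and 143 CPM in Tomato, also without overlap, but did not pass (0.36 ± 0.13, adjusted p = 0.0622). It passed with the block (0.37, adjusted p = 0.00757) and without Tomato replicate 1 (0.44, adjusted p = 0.0301). Mmp28 was hardly read, at 0.108 to 0.448 CPM over the 6 libraries.

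Of 7 MMPs held in the membrane, 2 were higher and 1 lower in GFP. Mmp14 (ENSMUSG00000000957, chromosome 14, 54431612 to 54445364), whose product MT1-MMP cleaves fibrillar collagen at the cell surface and activates pro-MMP2 in a complex with TIMP2, had 1151, 1143 and 1176 CPM in GFP and 802, 822 and 751 CPM in Tomato. Its libraries were the most alike within each fraction among the abundant MMPs, and the fractions were far apart relative to that spread (0.55 ± 0.10, adjusted p = 0.00591). Mmp15, which encodes MT2-MMP, was low at 2.85, 2.18 and 1.58 CPM in GFP and lower still at 0.933, 0.669 and 0.516 CPM in Tomato (1.63 ± 0.32, adjusted p = 0.00774). Mmp16, which encodes MT3-MMP, went the other way, with 3.18, 2.36 and 2.85 CPM in GFP and 4.83, 5.61 and 3.96 CPM in Tomato (-0.78 ± 0.20, adjusted p = 0.0215). Leaving out GFP replicate 2, GFP replicate 3 or Tomato replicate 2 ended this call (adjusted p = 0.0593 to 0.088). Mmp23 was abundant at 230, 252 and 231 CPM in GFP and 223, 214 and 183 CPM in Tomato. Its fractions did not overlap, yet the difference was small and did not pass (0.20 ± 0.10, adjusted p = 0.167). With the length and GC offsets and the block it was 0.46 and passed (adjusted p = 0.00398). Mmp17 (0.57) and Mmp25 (0.31), given by their adjusted p, did not pass, and Mmp24 (0.347) is taken up in the closing section because it shares nearly all its reads with a gene on the other strand.

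No TIMP passed the test. Timp1, secreted by activated fibroblasts and by many inflamed tissues, had 710, 900 and 1116 CPM in GFP and 905, 879 and 1325 CPM in Tomato (-0.19 ± 0.21, adjusted p = 0.512). Timp2 had 1609, 1676 and 1401 CPM in GFP and 1685, 1711 and 1191 CPM in Tomato (0.03 ± 0.16, adjusted p = 0.901). Timp3, whose product unlike the others is bound to the matrix and also inhibits ADAM17 and aggrecanases, had 1221, 1119 and 1661 CPM in GFP and 1094, 1558 and 1811 CPM in Tomato (-0.16 ± 0.21, adjusted p = 0.598). For each of these the libraries of the fractions overlapped. The sign for Timp1 turned with the length and GC offsets (0.21), and that for Timp2 when scaled by library size alone (-0.13), neither being called. Reck had 65.1, 66.2 and 56.9 CPM in GFP and 53.2, 48.6 and 31.6 CPM in Tomato. All its GFP libraries were above the Tomato ones, and it did not pass (0.50 ± 0.18, adjusted p = 0.0724), but did as higher with the block (0.53, adjusted p = 0.00648) and without Tomato replicate 1 (0.64, adjusted p = 0.0263).

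Summed over the 17 MMP genes, the level was 1493, 1662 and 1520 RPKM in the GFP libraries and 1347, 1328 and 926 RPKM in the Tomato libraries. The 4 TIMP genes summed to 1362, 1581 and 1820 RPKM in GFP and 1586, 1620 and 2020 RPKM in Tomato. The ratio of MMP to TIMP sums was 1.1, 1.05 and 0.835 in GFP and 0.849, 0.819 and 0.458 in Tomato, so the lowest GFP value fell just below the highest Tomato value. Between libraries of equal number the ratio was higher in GFP in 3 of 3, and the TIMP sum lower in 3 of 3, with no test of either. Mmp2 made up 37.1% to 45.4% of the MMP sum in GFP and 26.2% to 30.5% in Tomato, while Mmp12 made up 0.438% to 0.465% and 3.62% to 10.4%. Mmp3, which did not pass, made up 26.5% to 37.1% of the MMP sum in GFP and 31.8% to 43.1% in Tomato. Timp1, which did not pass either, made up 58.7% to 69% of the TIMP sum in GFP and 61.1% to 73.9% in Tomato. Such RNA sums say nothing of active enzyme, as MMPs are made as proforms.

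**Figure D4:**
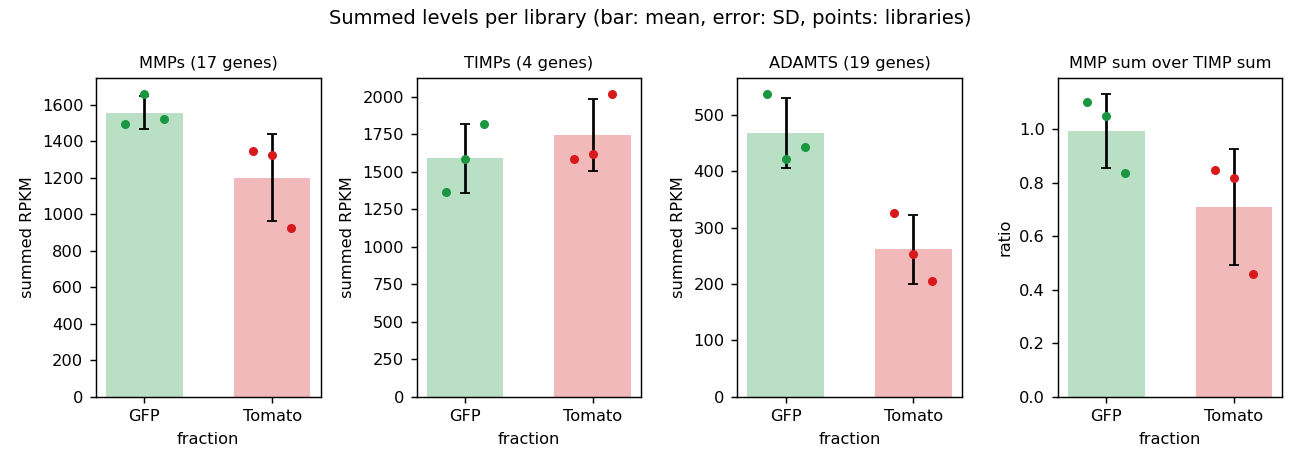
Summed RPKM of the MMP, TIMP and ADAMTS genes and the ratio of the MMP to the TIMP sum (y) in the GFP and Tomato fractions (x), with bars for the mean, error bars for the SD and a point for each library. The ADAMTS sums are separate, with at least 422 in GFP and at most 327 in Tomato, and the TIMP sums overlap.

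ADAMTS proteases made up the largest group of calls. Of 19 such genes, 17 were tested, 11 were higher in GFP and none was lower, and their summed level was 538, 422 and 444 RPKM in GFP against 327, 254 and 205 RPKM in Tomato. Of the fibroblast markers, Col1a2, Pdgfra, Pdgfrb and Thy1 were higher in GFP too, while Dcn, Lum, Pdpn and Fap did not pass. The 5 lymphatic endothelial markers tested and 6 of 8 endothelial markers were also higher. The part of any of these cells in the ADAMTS differences was not tested.

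The 3 procollagen N-propeptidases, which trim the amino end of fibrillar procollagens before fibrils form, were each higher in GFP. Adamts2 (ENSMUSG00000036545, chromosome 11, 50602084 to 50807573), the main enzyme for procollagen I, had 1374, 1217 and 1175 CPM in GFP and 828, 659 and 501 CPM in Tomato (0.92 ± 0.18, adjusted p = 0.00735). Adamts14 had 36.2, 32.3 and 31.9 CPM in GFP and 22.1, 19.3 and 17.1 CPM in Tomato (0.78 ± 0.12, adjusted p = 0.00248). For both genes the fractions were well separated, and both calls held without each library in turn. Adamts3, best known for activating VEGF-C, had 28, 18.7 and 25.3 CPM in GFP and 17.4, 15.2 and 13.3 CPM in Tomato (0.65 ± 0.17, adjusted p = 0.0214). Its lowest GFP library was close to the highest Tomato library, and leaving out GFP replicate 1, GFP replicate 3 or Tomato replicate 2 ended the call (adjusted p = 0.0663 to 0.080). Per length, Adamts2 exceeded the other two by far, at 134 ± 11.2 RPKM in GFP against 6.44 ± 0.459 for Adamts14 and 4.42 ± 0.885 for Adamts3. Their substrates Col1a1 (1.30, adjusted p = 0.00321) and Col3a1 (0.70, adjusted p = 0.0375) were higher as well, and so was the C-propeptidase gene Bmp1, at 1111, 905 and 1009 CPM in GFP and 750, 664 and 604 CPM in Tomato (0.58 ± 0.13, adjusted p = 0.0119).

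As these 3 genes passed in one direction, the promoters of the pair with the firmer calls are shown. They hold several copies of the GC box GGGCGG, which is marked in capitals on either strand. The windows of Mmp13, Mmp12, Mmp3, Mmp10 and Mmp8 hold no such box. Neither of the pair has TATAAA, which stands in the windows of Mmp13, Mmp3 and Mmp10 but not in those of Mmp12 and Mmp8. Adamts2 has 5 copies in the 250 bases before its start (chr11:50601835-50602084, plus strand), Adamts14 has 6 (chr10:61273420-61273669, minus strand) and Adamts3 has 1.
Adamts2: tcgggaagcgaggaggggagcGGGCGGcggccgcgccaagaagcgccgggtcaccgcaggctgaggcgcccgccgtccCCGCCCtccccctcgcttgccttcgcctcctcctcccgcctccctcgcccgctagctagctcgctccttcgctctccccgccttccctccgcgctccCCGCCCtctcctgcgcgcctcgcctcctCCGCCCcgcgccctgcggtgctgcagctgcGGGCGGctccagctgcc
Adamts14: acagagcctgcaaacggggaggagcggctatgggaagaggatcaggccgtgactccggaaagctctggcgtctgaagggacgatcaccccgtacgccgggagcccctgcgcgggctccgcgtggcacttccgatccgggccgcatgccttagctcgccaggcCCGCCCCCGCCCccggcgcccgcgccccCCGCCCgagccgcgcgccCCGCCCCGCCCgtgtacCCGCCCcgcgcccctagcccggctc

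At least 1 GC box was found before 24 of the 39 starts of the listed genes (61.5%), before 8 of the 13 starts of those higher in GFP (61.5%) and before 32.7% of the 32851 starts in the table. The share of starts was thus the same for genes that were higher as for all listed genes, which include them. It counts starts and not genes, and genes with several starts, such as Adam19, enter more than once.

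Of 7 ADAMTS genes whose products cleave aggrecan or versican, 3 were higher. Adamts4 had 373, 340 and 370 CPM in GFP and 214, 182 and 172 CPM in Tomato, with little spread in either fraction (0.93 ± 0.11, adjusted p = 0.000805). Adamts1, a versicanase that also acts in angiogenesis and ovulation, had 1210, 775 and 879 CPM in GFP and 722, 512 and 422 CPM in Tomato (0.79 ± 0.23, adjusted p = 0.0359). Adamts15 had 289, 214 and 233 CPM in GFP and 167, 135 and 82.0 CPM in Tomato (0.94 ± 0.25, adjusted p = 0.030). Unlike that of Adamts4, both of these calls depended on single libraries. That of Adamts1 ended when GFP replicate 1 or 3 or Tomato replicate 2 or 3 was left out (adjusted p = 0.0664 to 0.112). For Adamts15 it was lost without any GFP replicate or Tomato replicate 2 (0.0508 to 0.0745), and both were lost with no filter on low counts (0.136 and 0.143). Adamts5, the main aggrecanase of mouse cartilage, had 190, 196 and 153 CPM in GFP and 165, 123 and 76.2 CPM in Tomato, with overlap (0.56 ± 0.26, adjusted p = 0.146). It passed with the block (0.62, adjusted p = 0.0104) and without Tomato replicate 1 (0.84, adjusted p = 0.0214). Adamts8 likewise did not pass (0.78 ± 0.27, adjusted p = 0.0621) but did with the block (0.81, adjusted p = 0.0386) and without Tomato replicate 1 (0.95, adjusted p = 0.0408). Adamts9 (0.25, adjusted p = 0.199) and Adamts20 (0.39, adjusted p = 0.215) did not pass. The substrate gene of this group, Vcan, which encodes versican, was higher at 295, 230 and 216 CPM against 151, 110 and 89.8 CPM (1.08 ± 0.20, adjusted p = 0.00705), while Acan, for aggrecan, was at 0.109 to 0.646 CPM.

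Among the other ADAMTS genes, 5 of the 7 tested were higher. Adamts10 and Adamts6 encode related proteases that act on fibrillin microfibrils. Adamts10 had 83.3, 73.5 and 77.3 CPM in GFP and 48.2, 44.2 and 35.2 CPM in Tomato (0.87 ± 0.12, adjusted p = 0.00182). Adamts6 was rarer, with 7.32, 6.15 and 9.27 CPM in GFP and 3.45, 3.27 and 2.69 CPM in Tomato (1.27 ± 0.20, adjusted p = 0.00269). Both were separate by a wide margin. Adamts12 and Adamts7 form another related pair, known to cleave cartilage oligomeric matrix protein. Adamts12 had 45.5, 30.7 and 41.8 CPM in GFP and 24.1, 24.1 and 23.5 CPM in Tomato (0.72 ± 0.14, adjusted p = 0.00778). Adamts7 had 19.8, 17.7 and 22.0 CPM in GFP and 13.8, 14.3 and 14.8 CPM in Tomato (0.48 ± 0.11, adjusted p = 0.0163). The Tomato libraries were nearly alike for both. The Adamts7 call ended when GFP replicate 1 or 3 or Tomato replicate 2 was left out (adjusted p = 0.0512 to 0.0652) under library size scaling (0.0899) and with the length and GC offsets (0.0595). Adamts17, a further gene of fibrillin biology, had 3.42, 2.84 and 2.82 CPM in GFP and 2.22, 1.80 and 1.44 CPM in Tomato (0.73 ± 0.22, adjusted p = 0.0393). This call was the least stable of the family, being lost without any library but Tomato replicate 1 (0.0735 to 0.129), under library size scaling (0.0697), with the length and GC offsets (0.0595) and in the forward strand counts alone (0.171). Adamts16 (0.14, adjusted p = 0.531) and Adamts19 (0.14, adjusted p = 0.532) did not pass. Fbn1 and Fbn2, the fibrillin genes, were higher in GFP at 1.25 (adjusted p = 0.0263) and 1.29 (adjusted p = 0.00473).

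Of the 5 ADAMTS-like genes, 2 were higher in GFP and none lower, and both calls were fragile. Adamtsl1 had 149, 125 and 139 CPM in GFP and 115, 101 and 78.1 CPM in Tomato (0.49 ± 0.14, adjusted p = 0.0338). Adamtsl2, whose product binds fibrillin and latent TGF-beta binding protein, had 4.44, 5.61 and 9.58 CPM in GFP and 1.98, 3.89 and 3.34 CPM in Tomato (1.09 ± 0.34, adjusted p = 0.0437). Neither gene overlapped between the fractions, but the gaps were small. The Adamtsl1 call was lost without any GFP replicate or Tomato replicate 2 (adjusted p = 0.0557 to 0.113), and that of Adamtsl2 without any library but GFP replicate 1 (0.0615 to 0.125). Neither passed under library size scaling (0.0758 and 0.0775) or with the length and GC offsets (0.0619 and 0.0845). Adamtsl4 had 61.9, 56.2 and 44.5 CPM in GFP and 47.9, 39.3 and 29.4 CPM in Tomato and did not pass (0.48 ± 0.19, adjusted p = 0.0896), but did with the block (0.49, adjusted p = 0.00218) and without Tomato replicate 1 (0.65, adjusted p = 0.0203). Adamtsl3 (0.36, adjusted p = 0.393) did not pass. Adamtsl5 was at -0.30 (adjusted p = 0.213), and at -0.49 without Tomato replicate 3 (adjusted p = 0.013).

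Of the 7 ADAM genes, 4 were higher and 1 lower. Adam12 (ENSMUSG00000054555, chromosome 7, 133883199 to 134232146), a gene of activated mesenchymal cells, had 208, 150 and 205 CPM in GFP and 93.3, 90.5 and 74.5 CPM in Tomato (1.13 ± 0.15, adjusted p = 0.00127). Adam19, its close relative, which sheds neuregulins, had 104, 91.6 and 127 CPM in GFP and 50.8, 45.2 and 34.5 CPM in Tomato (1.31 ± 0.17, adjusted p = 0.00131). For both, every GFP library was well over every Tomato library and no single library decided the call. Adam33, another gene of the same branch that is expressed in mesenchyme, had 22.9, 21.6 and 16.0 CPM in GFP and 11.9, 8.88 and 5.38 CPM in Tomato (1.21 ± 0.28, adjusted p = 0.0171). Without GFP replicate 2 its adjusted p was 0.0532, and with no filter on low counts 0.0658. Adam9 had 305, 268 and 288 CPM in GFP and 235, 221 and 175 CPM in Tomato, a smaller difference (0.45 ± 0.12, adjusted p = 0.0279). That call was lost without any GFP replicate or Tomato replicate 2 (0.0518 to 0.0961) and under library size scaling (0.0787).

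The main sheddases of the family did not pass. Adam10, which cleaves Notch receptors and cadherins, had 188, 131 and 159 CPM in GFP and 134, 135 and 127 CPM in Tomato, with 1 GFP library inside the Tomato range (0.27 ± 0.13, adjusted p = 0.143). It passed without that library, GFP replicate 2 (0.39, adjusted p = 0.0448). Adam17, which releases TNF and ligands of the EGF receptor, had 133, 94.9 and 105 CPM in GFP and 109, 98.1 and 94.5 CPM in Tomato (0.14 ± 0.13, adjusted p = 0.427). Of 9 genes for proteins that escort ADAM10 and ADAM17, 8 were tested, and 1 was higher and 4 lower in GFP. The iRhom genes were opposed, with Rhbdf1 higher (0.43, adjusted p = 0.0213) and Rhbdf2, which myeloid cells rely on, lower (-0.89, adjusted p = 0.0214). The tetraspanin genes Tspan15 (2.15, 2.39 and 2.03 against 7.35, 9.37 and 6.87 CPM, adjusted p = 0.000336) and Tspan33 (-2.50, adjusted p = 0.000704) were lower and had the smallest adjusted p of that list.

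Adam8 (ENSMUSG00000025473, chromosome 7, 139978932 to 139992562), an ADAM of neutrophils, macrophages and many carcinomas, had 4.90, 5.28 and 11.2 CPM in GFP and 22.4, 29.0 and 51.0 CPM in Tomato. Every Tomato library lay well above every GFP library, a log2 fold change of -2.26 ± 0.42 (adjusted p = 0.00925), and the call held without each library in turn but not with no filter on low counts (adjusted p = 0.0648). Divided by the macrophage marker sum, Adam8 was at 0.0332, 0.0229 and 0.0480 in GFP and at 0.0214, 0.0164 and 0.0193 in Tomato. Every GFP library was then above every Tomato library, and the part of macrophages was not tested. The 7 neutrophil markers tested were lower in GFP (sums 2.27 to 5.21 against 24.4 to 37.3 CPM). So were 8 of 8 mesothelial markers, Krt19 among them (sums 47.7 to 104 against 1217 to 1605 CPM). Of the epithelial and cancer cell markers 4 of 8 were lower, Epcam, Cdh1, Krt8 and Krt18 (sums of the 8 at 92.1 to 114 against 356 to 429 CPM). Krt8 and Krt18 had the widest gaps of that list. The part of any of these cells was not tested.

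**Figure D5:**
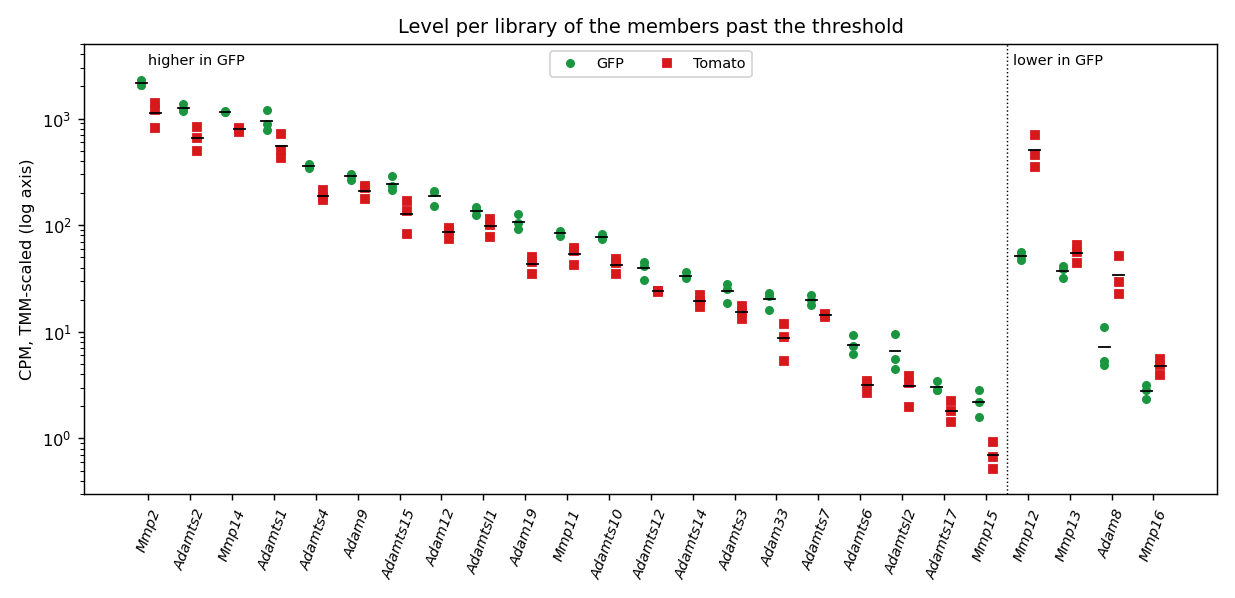
CPM on a log axis in each library of the 21 genes higher and the 4 genes lower in GFP, with circles for GFP, squares for Tomato and a line for each mean. Mmp2 is the most abundant gene, and Mmp12 and Adam8 show the widest gaps between the fractions.

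Other genes of the pathway were taken from 7 lists. Of 63 genes, 50 were tested, 15 were higher and 10 lower in GFP, with a median log2 fold change of 0.30. Among 13 other MMP, ADAM and ADAMTS-like genes none was higher and 2 were lower, namely Mmp7, or matrilysin, a gene of epithelia (0.108, 0.119 and 0.0564 CPM in GFP against 1.14, 0.746 and 0.815 CPM in Tomato, -3.22 ± 0.41, adjusted p = 0.00116), and Thsd4, which encodes ADAMTSL6 (-1.69 ± 0.14, adjusted p = 0.00019). Thsd4 was thus opposite in sign to Adamtsl1 and Adamtsl2. Mmp1a, the mouse counterpart of the human interstitial collagenase gene, and Mmp20 were at 0 reads in every library. Of 9 astacin and pappalysin genes Bmp1 was higher and Tll1 lower (-1.03, adjusted p = 0.0216). Of the 4 proprotein convertase genes, whose products activate MMP11, MMP14 and the ADAM and ADAMTS proforms, 3 were higher and none lower, with Pcsk7 (0.41, adjusted p = 0.0165) and Furin (166, 152 and 180 against 123, 120 and 135 CPM, 0.40, adjusted p = 0.0185) having the smallest adjusted p.

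Of 9 genes for inducers, clearance receptors and further inhibitors, 2 were higher and 2 lower. A2m, which encodes the plasma inhibitor alpha-2-macroglobulin that traps proteases of every class, had 409, 229 and 347 CPM in GFP and 129, 88.5 and 77.5 CPM in Tomato (1.74 ± 0.26, adjusted p = 0.00378). Lrp1, the endocytic receptor that takes up alpha-2-macroglobulin complexes, MMPs and TIMPs, had 1087, 1140 and 978 CPM in GFP and 641, 598 and 360 CPM in Tomato (1.003 ± 0.204, adjusted p = 0.00939). Both were without overlap. The testican genes Spock3 (0.296, 0.298 and 0.648 against 14.9, 9.37 and 3.42 CPM, -4.47 ± 0.63, adjusted p = 0.00335) and Spock2 (-1.61, adjusted p = 0.0103) were lower. Of 10 ADAMTS substrate genes 6 of the 7 tested were higher, with Col1a1 and Fbn2 having the smallest adjusted p. Of the collagen receptor and AP-1 genes 2 of 9 were higher, as given above, and the epithelial collagen receptor gene Ddr1 was lower (-0.57, adjusted p = 0.00174).

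With the block, 26 of the 53 genes were higher and 5 lower in GFP, against 20.1% and 20.9% of all genes tested. The 6 added calls were those of Mmp8, Mmp19, Reck, Adamts5, Adamts8 and Adamtsl4, and none of the 25 was lost. With the length and GC offsets as well, 28 were higher and 3 lower, against 25.9% and 13.4% of all genes tested.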

How the data were processed

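RNA of Podoplanin-positive GFP and Tomato cells was sequenced in 3 libraries each, with 150 ng of RNA put into an Illumina TruSeq preparation, per the labels' protocols. The authors deposited raw counts of reads per gene, for both strands together and for each strand, per the file headers. Trim Galore 0.4.3, STAR 2.5.2b and GRCm38 are named in the submitters' processing notes, with no roles, and the annotation release is not given in the sources used here. Counts for both strands were used, since the strand columns held nearly equal totals (ratio 1.002 to 1.006). That column leaves out reads over exons of genes on both strands.

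Of 49671 identifiers, 49412 matched GENCODE M21, which gave symbols, coordinates and exon lengths, and all 53 genes were found. GFP was compared with Tomato with edgeR 4.0.16 under R 4.3.3, by its two-sided quasi-likelihood test (TMM, filterByExpr, robust, no block), with Benjamini-Hochberg adjustment across the 15608 genes tested at a threshold of 0.05, and tested on simulated data. The standard error is the fold change over the square root of F. CPM and RPKM are TMM-scaled, and summed RPKM were not tested. Libraries of equal number deviated together from their group means (correlations 0.403, 0.108 and 0.347, over the limit of 0.1 in all 3 pairs). Those of unlike number were at -0.392 to 0.0281. On the ground of the data alone, the numbers were therefore used as pairs in the block, which is an alternative fit. The correlations rest on deviations about means of 3 libraries, which ties them to one another, so the 3 pairs are not separate checks. Values given without a named setting are from the fit with no block. No library pair of a group was a duplicate (chi-square over its degrees of freedom at least 28).

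The alternatives were other scalings, no filter or one of 1 CPM in at least 3 libraries, DESeq2 1.42.0, the block, natural splines (4 degrees of freedom) fitted as offsets for length and GC content, single strand columns, a threshold of 0.01 and each library left out. Genes called, or with a mean of at least 50 CPM in a fraction, are given by library. Of each pathway list the 2 genes up and 2 down with the smallest adjusted p are named, while Rhbdf2, Vcan, Acan, Col3a1, Fbn1, Mmp1a, Mmp20 and the AP-1 genes that did not pass were named after their values were seen, and so were the promoters other than those of Mmp12 and Mmp13 chosen. The genes and lists were chosen with earlier results of these data known. Totals of 33378377 to 42154933 counts limit genes near 1 CPM to few reads.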

Additional observations from a re-analysis of the deposited data

How the results depend on the processing

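Of the 53 genes, 21 higher and 4 lower in GFP by edgeR became 12 and 2 at an adjusted p below 0.01. Over all 15608 genes tested, 2049 and 2456 became 578 and 1083. With 1 library left out there were 13 to 25 higher and 2 to 5 lower (13 higher when GFP replicate 3 was left out, 13 and 2 when Tomato replicate 2 was, 2 lower when GFP replicate 2 was left out, 14 higher when GFP replicate 1 was). The calls over all genes moved too, from 833 to 2392 higher and from 1380 to 2793 lower. They were 833 and 1528 without Tomato replicate 2, and 2392 and 2793 without Tomato replicate 1. DESeq2 gave 25 and 5, with 2316 and 2611 over all genes. Other scalings and filters gave 16 to 21 higher and 4 to 5 lower, with 1128 to 2044 and 2186 to 3851 over all genes. Single strand columns gave 20 to 22 and 4, with 1888 to 1915 and 2203 to 2287 over all genes. The pairing by replicate number gave 26 and 5 with the block and 28 and 3 with the block and the length and GC offsets, against 19 and 3 with those offsets alone. The block without offsets changed no call other than the 6 named. On top of the offsets it also brought in Mmp10 and 4 calls that the offsets alone had ended (Adamts7, Adamts17, Adamtsl1 and Adamtsl2). The Mmp13 call, also ended by the offsets alone (adjusted p = 0.212 by edgeR), did not return with the block (0.159). Over all genes the median log2 fold change was 0.00 and moved to 0.12 with those offsets and to -0.16 when scaled by library size alone, where the median of the listed genes was 0.43 and 0.30. Signs turned only for genes not called in either fit. They did so by library size alone for Mmp3 (-0.072), Timp2 (-0.131), Adamts16 (-0.026), Adamts19 (-0.024) and Adam17 (-0.024), with the offsets for Timp1 (0.21, and 0.204 with the block), in the forward strand counts for Mmp17 (0.064) and Mmp24 (0.076) and in the reverse strand counts for Mmp24 (0.073). With a library left out the range was -0.003 to 0.247 for Adam17, -0.173 to 0.246 for Mmp3, -0.363 to 0.018 for Timp1 and -0.129 to 0.117 for Timp2. The cause was not tested. Mmp25 and Mmp28, below 1 CPM on average, rest on few reads, and only large differences can pass at such levels.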

Other observations

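Mmp24, the gene of MT5-MMP, had 82 reads over the 6 libraries in the column for both strands and 4157 in the strand columns. It shares 637 exon bases with BC029722 on the other strand, which had a mean of 17.6 CPM for GFP and 17.3 CPM for Tomato. Its sum over the strand columns was 19.1 ± 1.62 CPM (SD, n = 3) for GFP and 18.0 ± 1.64 CPM for Tomato, so its own level cannot be read from either column. Timp3, which lies within Syn3 on the other strand and shares 1733 exon bases with it, had 1.384 times as many reads in the strand columns. There it reached 1852 ± 387 CPM for GFP and 2052 ± 501 CPM for Tomato, and its log2 fold change (GFP over Tomato) of -0.16 in the forward and -0.15 in the reverse column was near that in the column for both. Adamts7 had 1.425 times as many reads in the strand columns and passed in each of them by edgeR (0.48, adjusted p = 0.0171, and 0.43, adjusted p = 0.0231). Adam19 had 1.192 times as many and also passed in each (1.24, adjusted p = 0.000894, and 1.36, adjusted p = 0.00103). Adamts9, with 1.371 times as many, passed as higher in the forward column alone (0.33, adjusted p = 0.0494, against 0.117 in the reverse column).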
